A study of Anableps anableps with 4 samples.

Results

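Cartilage spots were Visium capture spots, barcoded patches of a slide that each take up the RNA of the tissue lying on them, in which cartilage genes made up an appreciable part of the RNA. They were chosen by the measured counts of 5 genes, acanb, MATN1, col9a1a, COL9A2 and col9a3. A spot counted as a cartilage spot when it held 100 or more UMIs (unique molecular identifiers, 1 per captured RNA molecule), of which 5 or more and at least 1% came from these genes. In the developmental sections of the four-eyed fish Anableps anableps, 152 of 1914 spots met this rule, out of 4695 spots in the whole series. A stage 4 head held 134 of them among 1135 spots, which is 11.8% (exact Clopper-Pearson 95% interval 9.99 to 13.8%). A capture area carrying a stage 3 head together with a stage 5 eye, called the mixed section from here on, held 18 among 779 spots, which is 2.31% (1.38 to 3.63%). The same rule found 12 of 1293 spots in a first adult eye and 4 of 1488 in a second, and these 16 spots served as the adult comparison. All 4 sections were fresh frozen, cut at 10 µm, given no treatment in the labels and listed under batch 1. Strain, sex and exact age are not given there, nor whether the adult eyes came from the same fish. Spot positions were not used here, so the stage 3 and stage 5 tissue could not be separated, and whether a cartilage spot lay in the eye or elsewhere in the head is not known.

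Cartilage is a firm, largely vessel-free tissue whose cells, the chondrocytes, sit in a matrix of their own making. Fibrils of type II collagen, decorated with type IX and copolymerised with type XI collagen, give it tensile strength, and aggrecan, a large proteoglycan carrying sulfated sugar chains, holds the water that resists compression. In the vertebrate head it builds the early braincase and the jaw and gill skeleton, and in many fishes it also stiffens the wall of the eye. SOX9 is the transcription factor that switches on most of these matrix genes, and chondrocytes that enlarge before bone replaces them make type X collagen.

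A spot can hold several cells of different types or part of a cell, so a lower level can come from fewer cells of a type or from less RNA per cell, and the counts cannot tell these apart. Spots of a section are not replicates. The spots were chosen by their values and each developmental group has 1 section, so no test was run and differences are given by size, as ratios with 95% intervals that cover counting error only. Levels are in CPM, the UMIs of a gene scaled to the summed UMIs of the same spots. Cartilage spots were shallower than the other spots of their section. Their median was 1597.5 UMIs in the stage 4 head (lowest 375, highest 8850) against 2521 in its other spots, and 830.5 in the mixed section (lowest 287, highest 3161) against 1657. Together they held 262918 UMIs in the stage 4 head, and those of the mixed section 17755. A gene with no UMI could therefore still have been present. The level of 3 counts, set as a floor, was 11.4 CPM in the stage 4 head and 169 CPM in the mixed section. For 0 UMIs the upper 95% bound in the mixed section was 208 CPM.

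The genes that chose the spots are given as a description. Their share of a spot's UMIs was 1.005% in the lowest, 2.79% in the median and 6.87% in the highest of the 134 spots of the stage 4 head. The lowest, median and highest of the 18 spots of the mixed section had 1.08%, 1.76% and 4.47%. Cartilage spots held 6783 of the 10066 UMIs of these genes in the stage 4 head (67.4%) and 316 of 842 in the mixed section (37.5%). The rest lay thinly over the sections, with at least 1 such UMI in 49.7% of the other spots of the stage 4 head and 28.4% of those of the mixed section. The 3 spots just inside the threshold in the stage 4 head had shares of 1.005%, 1.01% and 1.01%, and the 3 nearest outside it, among spots with 5 or more of these UMIs, had 0.985%, 0.978% and 0.96%. In the mixed section the nearest spots inside had 1.08%, 1.08% and 1.1%, and those outside 0.781%, 0.77% and 0.765%.

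The 5 genes did not keep the same order of abundance in both sections. The gene col9a1a, for the alpha 1 chain of collagen IX, gave the largest part of their UMIs in the stage 4 head, 32.1% (31 to 33.2%), and 27.2% (22.4 to 32.5%) in the mixed section. COL9A2, the alpha 2 chain, gave the largest part in the mixed section, with 24.7% (23.7 to 25.8%) in the stage 4 head and 37.3% (32 to 42.9%) in the mixed section. The alpha 3 chain gene col9a3 gave 16.4% in the stage 4 head and 18.4% in the mixed section, and the aggrecan gene acanb 20.7% in the stage 4 head and 13.6% in the mixed section. MATN1, encoding matrilin 1, which links collagen fibrils and proteoglycans, gave the smallest part in both, at 6.03% in the stage 4 head and 3.48% in the mixed section. It had a UMI in 110 of the 134 cartilage spots of the stage 4 head and in 8 of the 18 of the mixed section.

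**Figure D1:**
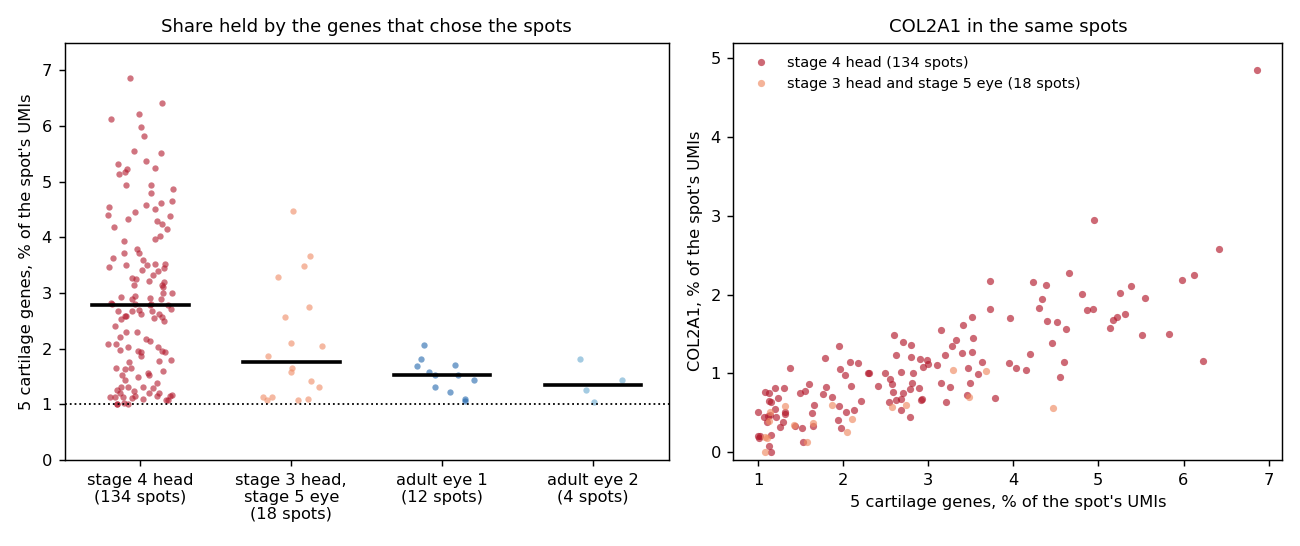
Left, the share of a spot's UMIs (percent) held by the 5 genes that chose the spots, for every cartilage spot of the 4 sections, each point a spot, with black bars at the medians and a dotted line at the 1% threshold. Right, the share held by COL2A1, which the rule did not use, against that share in the developmental sections; the highest spot of the stage 4 head had 6.87% of its UMIs in the 5 genes.

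Genes that the rule did not use and that encode other parts of the cartilage matrix were many-fold higher in the cartilage spots of both sections. COL2A1 (ENSABLG00000000928), the type II collagen chain, had 9817 CPM in cartilage spots of the stage 4 head against 385 CPM in its other spots, a ratio of 25.5 (24 to 27.2). The mixed section gave 4506 CPM in cartilage and 174 CPM in other spots, a ratio of 25.9 (19.9 to 33.4). Per spot, COL2A1 was at 0, 9933 and 48485 CPM in the lowest, median and highest cartilage spot of the stage 4 head, and at 0, 4631 and 10381 CPM in those of the mixed section. A COL2A1 UMI was found in 133 of 134 and 17 of 18 cartilage spots. The other spots had a median of 0 CPM and reached 8403 CPM in the stage 4 head and 12048 CPM in the mixed section, so single spots of the classes overlapped while their sums lay far apart.

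OTOS (ENSABLG00000019315), encoding otospiralin, a small secreted protein known from the mammalian inner ear, had a UMI in all 152 cartilage spots. Its level was 14430.4 CPM in cartilage spots of the stage 4 head against 401 CPM in its other spots, a ratio of 36 (33.9 to 38.1). The OTOS level in the mixed section was 5238 CPM in cartilage and 137 CPM in other spots, a ratio of 38.2 (29.6 to 49.1). The lowest, median and highest cartilage spots had 1935, 15479 and 36101 CPM in the stage 4 head and 1263, 5619 and 11679 CPM in the mixed section, and the highest other spot had 12996 CPM in the stage 4 head and 6231 CPM in the mixed section, so here too the classes overlapped spot by spot. CNMD, for chondromodulin, a cartilage glycoprotein that keeps vessels out, sums 4 gene entries that share the symbol. In the stage 4 head it had 2902 CPM in cartilage and 109 CPM in other spots, a ratio of 26.7 (23.7 to 30.1), with a UMI in 123 of 134 cartilage spots. CNMD in the mixed section had 1689.7 CPM in cartilage and 48.1 CPM in other spots, a ratio of 35.1 (22.1 to 54.4), with a UMI in 12 of 18.

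Shares of spots with a UMI depend on depth, so they were repeated with each spot thinned to 500 UMIs, which left out 4 cartilage and 100 other spots of the stage 4 head and 3 and 112 of the mixed section. After thinning, COL2A1 in the stage 4 head had a UMI in 96.2% (91.3 to 98.7%) of cartilage spots against 15% of other spots, where the shares without thinning were 99.3% and 40.4%. The mixed section had one in 80% (51.9 to 95.7%) against 8.94%, and in 94.4% against 20.1% without thinning. The share of spots with a COL2A1 UMI was higher in cartilage at equal depth too.

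Of 128 genes with 20 or more UMIs in the cartilage spots of both developmental sections, 13 were 2-fold or more higher there than in the other spots of both (10.2%), and 9 were 4-fold or more higher (7.03%). The 13 include acanb, col9a1a, COL9A2 and col9a3, which chose the spots, while MATN1, with 11 UMIs in the mixed section, was below the count minimum. The remaining 9 were COL2A1, OTOS, CNMD, thbs1b, bhmt, pabpc1b, nme2a and 2 genes without a symbol. The median ratio over all genes with 20 or more UMIs in the cartilage spots was 1.65 in the stage 4 head (691 genes, 0.72 on the log2 scale) and 1.43 in the mixed section (130 genes, 0.52 on the log2 scale). That minimum leaves out genes low in cartilage spots. With genes kept instead by their level over all used spots of the section, a choice made after seeing the data, the median was 0.923 in the stage 4 head (668 genes) and 1.27 in the mixed section (131 genes). With every ratio divided by the first pair of medians, 11 genes were higher and 24 lower in both sections, against 13 higher and 17 lower without that.

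The gene thbs1b, for a copy of thrombospondin 1, a secreted glycoprotein that binds matrix, had 779.7 CPM in cartilage spots of the stage 4 head against 44.7 CPM in its other spots, a ratio of 17.5 (14.2 to 21.4). The mixed section gave thbs1b 1295 CPM in cartilage and 32.8 CPM in other spots, a ratio of 39.5 (23 to 66.1) on 23 UMIs. It was patchy, with a UMI in 73 of 134 and 11 of 18 cartilage spots. A metabolic gene, bhmt, was also among the 9. It encodes betaine-homocysteine methyltransferase, which makes methionine from homocysteine and is abundant in mammalian liver. For bhmt the stage 4 head had 5785 CPM in cartilage and 1171 CPM in other spots, a ratio of 4.94 (4.66 to 5.23), and a UMI in 125 of 134 cartilage spots and 550 of 1001 other spots. Its level in the mixed section was 6026 CPM in cartilage and 560.4 CPM in other spots, a ratio of 10.8 (8.71 to 13.2).

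Smaller differences were found in genes of general cell function. The poly(A)-binding protein gene pabpc1b had a ratio of 4.01 (3.55 to 4.51) in the stage 4 head and 2.18 (1.39 to 3.26) in the mixed section. For nme2a, a nucleoside diphosphate kinase gene, the ratio was 3.32 (3.1 to 3.55) in the stage 4 head and 2.13 (1.65 to 2.7) in the mixed section. The genes without a symbol were ENSABLG00000010778, with ratios of 3.57 in the stage 4 head and 4.87 in the mixed section, and ENSABLG00000001830, with 3.52 in the stage 4 head and 4.81 in the mixed section. Ribosomal protein genes had a median ratio of 1.88 over 70 genes in the stage 4 head (lowest 1.38, highest 2.19) and 1.43 over 68 genes in the mixed section (0.86 to 2.33), where they are 68 of the 130 genes at the count minimum. They made up 46.1% of cartilage-spot UMIs against 24.8% of other-spot UMIs in the stage 4 head, and 42.4% against 30.6% in the mixed section. The part of this share in the ratios of other genes was not tested.

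**Figure D2:**
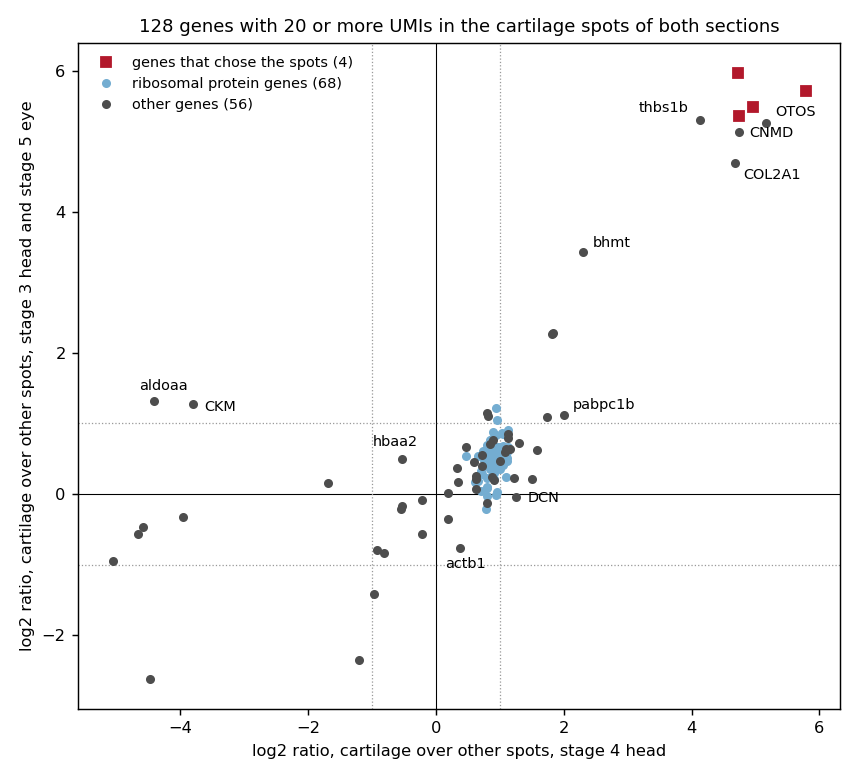
Log2 ratio of cartilage over other spots in the stage 4 head (x axis) and in the mixed section of stage 3 head and stage 5 eye (y axis) for the 128 genes with 20 or more UMIs in the cartilage spots of both. Genes that chose the spots are red squares, ribosomal protein genes are blue and dotted lines mark 2-fold; OTOS, CNMD, COL2A1 and thbs1b lie beside the red squares at the upper right, and aldoaa and CKM have opposite signs in the 2 sections.

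The stage 4 head, with its deeper cartilage spots, allowed more genes to be read. There 233 of 691 genes were 2-fold or more higher in cartilage spots (33.7%), 109 of them 4-fold or more (15.8%), and 224 of 653 genes were 2-fold or more lower (34.3%). The mixed section alone had fewer readable genes, of which 20 of 130 were 2-fold or more higher (15.4%) and 22 of 131 lower (16.8%). A list of cartilage matrix genes found 29 genes in the files, of which 23 had a UMI in cartilage spots of the stage 4 head and 17 reached the count minimum. Of these, 15 were 2-fold or more and 13 4-fold or more higher, with a median ratio of 14.4. COL2A1, OTOS and CNMD were the list's only members at the minimum in the mixed section, and all 3 were higher. Summed, the list came to 33044.5 CPM in cartilage and 2024 CPM in other spots of the stage 4 head, and to 14193 CPM in cartilage and 1128 CPM in other spots in the mixed section. Of the list's 8688 UMIs in cartilage spots of the stage 4 head 3794 were of OTOS. Without OTOS the summed ratio there was 11.5, against 16.3 with it.

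Several matrix genes were close to absent outside the cartilage spots of the stage 4 head. EPYC, for the small proteoglycan epiphycan, had 22 UMIs in cartilage spots against 3 in the 1001 other spots, a ratio of 112 (33.6 to 583). MATN4, for matrilin 4, had 27 UMIs in cartilage and 4 in other spots, a ratio of 103 (35.8 to 405), and COL11A1, the alpha 1 chain of the type XI collagen inside the fibrils, 30 in cartilage and 5 in other spots, a ratio of 91.4 (35.1 to 302). COL9A1, a further collagen IX gene that the rule did not use, had 80 UMIs in cartilage and 26 in other spots, a ratio of 46.9 (29.8 to 76.1). Cartilage spots of the mixed section held for EPYC 0, MATN4 1, COL11A1 1 and COL9A1 3 UMIs, too few to read except as presence.

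The smaller secreted proteins of cartilage formed a second tier. The genes ucmaa and ucmab encode copies of UCMA, a cartilage protein whose glutamates are carboxylated with the help of vitamin K. The stage 4 head gave ucmaa 1019 CPM in cartilage and 49.4 CPM in other spots, a ratio of 20.6 (17.1 to 24.9), and ucmab 441 CPM in cartilage and 35.9 CPM in other spots, a ratio of 12.3 (9.53 to 15.8). Chondroadherin-like, encoded by chadlb, had a ratio of 18.8 (14.2 to 25), and the growth and adhesion factor gene mia, which mammalian chondrocytes secrete, 14.4 (11.1 to 18.6). VIT, for vitrin, a matrix protein with von Willebrand factor A domains like those of matrilins, had 616 CPM in cartilage and 53.4 CPM in other spots, a ratio of 11.5 (9.35 to 14.2). In the mixed section VIT was below the count minimum, with 845 CPM in cartilage and 66.9 CPM in other spots on 15 UMIs, a ratio of 12.6 (6.82 to 21.9). PRELP, a leucine-rich repeat protein that anchors matrix to basement membranes, was lower down, at 3.09 (2.43 to 3.9) in the stage 4 head.

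Some members of the list were not higher, or higher by less. The gene hapln1a, for the link protein that ties aggrecan to hyaluronan, had 137 CPM in cartilage spots of the stage 4 head against 224 CPM in its other spots, a ratio of 0.61 (0.425 to 0.851), and no UMI in the 18 cartilage spots of the mixed section. CYTL1, a small secreted protein of mammalian cartilage, had a ratio of 1.93 (1.3 to 2.8) in the stage 4 head. Below the count minimum, fmoda had 1 UMI in cartilage spots of the stage 4 head against 213 in its other spots, a ratio of 0.0715. The matrilin gene matn3b had 4 and 54 UMIs, a ratio of 1.13, and the type XI collagen gene COL11A2 2 and 18, a ratio of 1.69. The gene ecrg4a, for a secreted peptide precursor, had 1540.4 CPM in cartilage and 399.9 CPM in other spots there, a ratio of 3.85 (3.45 to 4.3). Its level in the mixed section was 225 CPM in cartilage and 213 CPM in other spots, a ratio of 1.06 (0.287 to 2.74) on 4 UMIs. These intervals do not overlap, but they cover counting error only, and the difference between the sections was not tested.

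**Figure D3:**
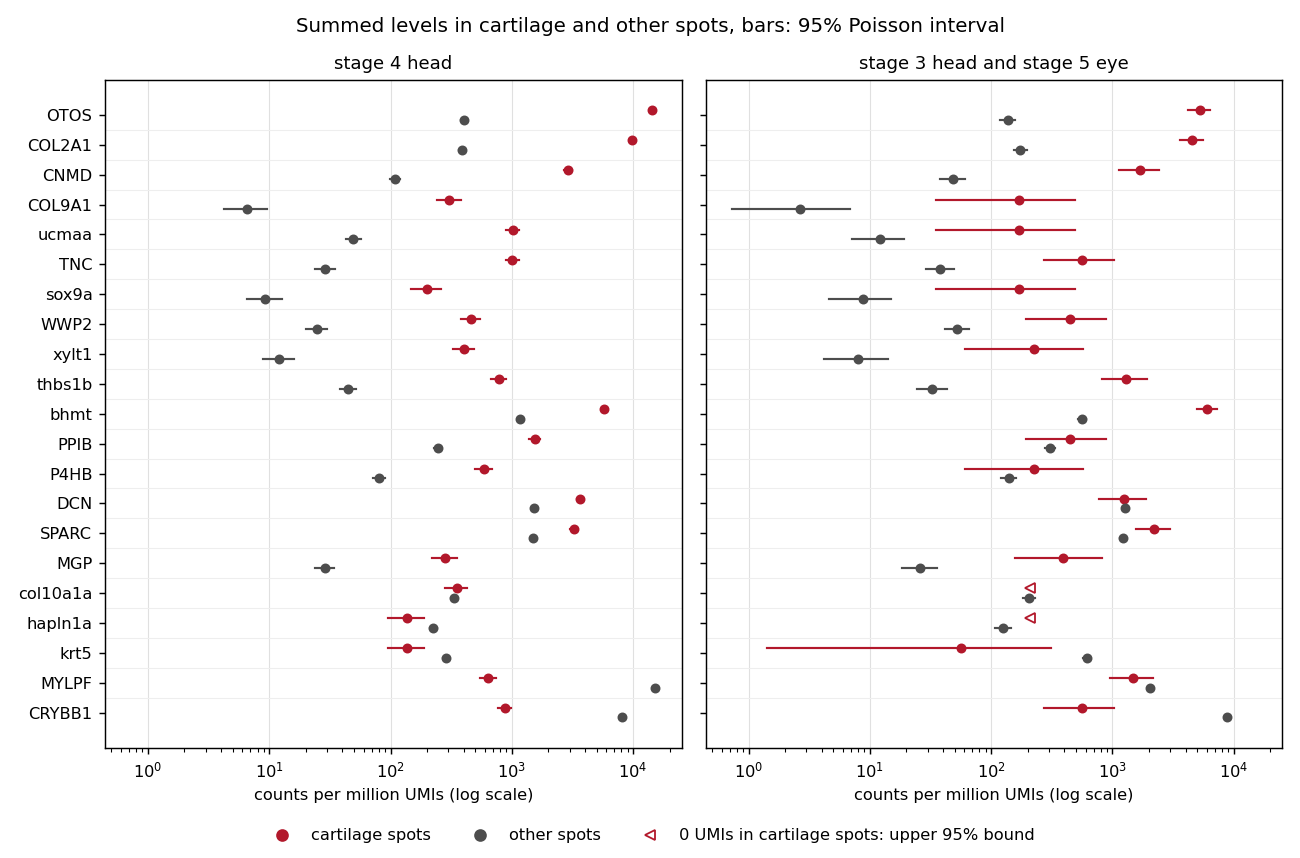
Summed level (CPM, log scale) of 21 genes in cartilage spots (red) and other spots (grey) of the stage 4 head (left) and of the mixed section of stage 3 head and stage 5 eye (right), with 95% Poisson bars. Matrix genes such as OTOS and COL2A1 lie far to the right in cartilage spots, col10a1a does not, and MYLPF and CRYBB1 lie to the left in the stage 4 head.

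The regulators of chondrocytes were sparse. Of 34 such genes in the files, 20 had a UMI in cartilage spots of the stage 4 head, and the 3 that reached the count minimum, sox9a, WWP2 and FRZB, were all 2-fold or more higher, against 33.7% of all genes at that minimum, which is set in the cartilage spots themselves. The gene sox9a, 1 of the fish copies of SOX9, had 198 CPM in cartilage and 9.24 CPM in other spots in the stage 4 head on 52 UMIs, a ratio of 21.4 (13.8 to 33.6). The mixed section gave sox9a 3 UMIs in cartilage spots against 13 in other spots, a ratio of 19.4 (3.55 to 70.7). Thinned to 500 UMIs, 8.46% (4.3 to 14.6%) of cartilage spots of the stage 4 head had a sox9a UMI against 0.999% of other spots, and 26.9% against 2.997% without thinning. Its paralog sox9b had 17 UMIs in cartilage spots against 31 in other spots, a ratio of 8.36 (4.34 to 15.6). SOX5 and SOX6, partners of SOX9 in mammals, had 4 and 7 UMIs.

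WWP2, a ubiquitin ligase gene that SOX9 activates in mouse chondrocytes, had 456 CPM in cartilage and 24.7 CPM in other spots in the stage 4 head, a ratio of 18.5 (14 to 24.4), and 451 CPM in cartilage and 52.2 CPM in other spots in the mixed section, a ratio of 8.64 (3.6 to 17.9) on 8 UMIs. FRZB, a secreted antagonist of Wnt signalling, had 399 CPM in cartilage and 56.2 CPM in other spots in the stage 4 head, a ratio of 7.11 (5.59 to 9.004), and 1 UMI in cartilage spots of the mixed section. The only regulator readable in the other direction was prrx1b, a homeobox gene of skeletal mesenchyme, with 9 UMIs in cartilage spots against 316 in other spots of the stage 4 head, a ratio of 0.434. Below the minimum for that direction, MEF2C had 2 UMIs in cartilage spots against 256 in other spots there, a ratio of 0.119. Summed, the regulators came to 1362 CPM in cartilage and 337 CPM in other spots in the stage 4 head and to 901 CPM in cartilage and 345 CPM in other spots in the mixed section.

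Genes that build the sulfated sugar chains of aggrecan summed to 730.3 CPM in cartilage and 74.4 CPM in other spots in the stage 4 head, a ratio of 9.82, and to 676 CPM in cartilage and 177 CPM in other spots in the mixed section on 12 UMIs. Of 27 such genes in the files, 20 had a UMI in cartilage spots of the stage 4 head, and both that reached the count minimum were 2-fold or more higher (33.7% of all genes were). Of the list's 192 UMIs in those spots 105 were of xylt1, and without it the summed ratio was 5.3. PAPSS1, UGDH and SLC26A2 had 2, 1 and 1 UMIs there, too few to read. The gene xylt1, whose product attaches the first sugar of each chain, sums 3 entries and had 399 CPM in cartilage and 12 CPM in other spots, a ratio of 33.3 (23.5 to 47.9). The gene csgalnact1a, which commits a chain to chondroitin, had 76.1 CPM in cartilage and 6.24 CPM in other spots, a ratio of 12.2 (6.42 to 22.9). The sulfate-donor synthase gene papss2a, just under the minimum with 18 UMIs, had a ratio of 9.8 (5.1 to 18.3). For xylt1 the mixed section had 4 UMIs in cartilage and 12 in other spots, a ratio of 28.1 (6.6 to 92.6).

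Genes that hydroxylate, fold and export collagen were higher by less in the stage 4 head. They summed to 4659 CPM in cartilage and 1087 CPM in other spots, and 11 of 12 genes at the count minimum were 2-fold or more higher, with a median ratio of 4.39, where 33.7% of all genes at that minimum were and their median ratio was 1.65. PLOD2, a lysyl hydroxylase that prepares collagen for crosslinking, had 281 CPM in cartilage and 17.5 CPM in other spots, a ratio of 16.1 (11.5 to 22.7). CRTAP and PPIB, members of the complex that hydroxylates prolines at the third position, had ratios of 8.07 (5.69 to 11.3) and 6.29 (5.59 to 7.08). P4HB, a subunit of prolyl 4-hydroxylase, had 7.31 (5.99 to 8.89), and CREB3L2, a transcription factor that raises the secretory capacity of mouse chondrocytes, 3.65 (2.35 to 5.51). Below the minimum, SERPINH1 and HSPA5 had ratios of 1.24 and 0.785 on 4 and 5 UMIs in cartilage spots of the stage 4 head. The same list in the mixed section summed to 2534.5 CPM in cartilage and 1503 CPM in other spots, with no gene at the count minimum, and PPIB had a ratio of 1.47 (0.63 to 2.92) on 8 UMIs.

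The type X collagen gene col10a1a (ENSABLG00000014825), a proposed marker of these spots that the rule did not use, did not follow the others. It had 349.9 CPM in cartilage spots of the stage 4 head against 331 CPM in its other spots, a ratio of 1.06 (0.846 to 1.31). Cartilage spots held 92 of its 1418 UMIs. Of the 68 spots with 3 or more col10a1a UMIs, 12 were cartilage spots and 62 held at least 1 UMI of the genes that chose the spots, whose median share in the 68 was 0.193%. A single cartilage spot held 27 of the 92 UMIs, and without it the ratio was 0.752 (0.577 to 0.965). That ratio left out spots on 1 side only, since the highest other spot, with 263 UMIs, was kept. Thinned, 15.4% (9.66 to 22.8%) of cartilage spots had a UMI against 6.99% of other spots, and 26.1% against 13% without thinning. The share and the sum without the highest cartilage spot do not order the classes alike, and no order is read from either. No col10a1a UMI was found in the 18 cartilage spots of the mixed section, against 309 UMIs (207 CPM) in the other spots. The counting interval of that ratio reached up to 1.01, so a level equal to that of the other spots is not excluded.

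Other genes of hypertrophy and bone were mixed. MGP, for matrix Gla protein, an inhibitor of calcification, had 281 CPM in cartilage and 28.7 CPM in other spots in the stage 4 head, a ratio of 9.8 (7.22 to 13.2), and 394 CPM in cartilage and 26.1 CPM in other spots in the mixed section, a ratio of 15.1 (5.71 to 34.2) on 7 UMIs. SPARC, a collagen-binding protein of bone and connective tissue, had ratios of 2.17 (2.02 to 2.34) in the stage 4 head and 1.81 (1.28 to 2.48) in the mixed section. Without its highest spot the mixed-section SPARC ratio was 1.46 (0.985 to 2.1). The second type X gene, col10a1b, had a stage 4 ratio of 1.09 (0.672 to 1.68), and col1a1b, a type I collagen gene of bone and skin, 1.06 (0.608 to 1.74) on 17 UMIs. SP7 and runx2b, transcription factor genes of bone formation, had 2 and 0 UMIs in cartilage spots of the stage 4 head. The list summed to 4077 CPM in cartilage and 2033 CPM in other spots in the stage 4 head and to 2759.8 CPM in cartilage and 1621 CPM in other spots in the mixed section. In the mixed section 16 of its 49 UMIs in cartilage spots lay in 1 spot, and the summed ratio was 1.21 without that spot. Of the 4 genes of this list at the count minimum in the stage 4 head, MGP and SPARC were 2-fold or more higher, beside 33.7% of all genes at that minimum.

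Genes of fibrous connective tissue were higher by little in the stage 4 head. They summed to 6386 CPM in cartilage and 2999 CPM in other spots there and to 2591 CPM in cartilage and 2806 CPM in other spots in the mixed section. DCN, for decorin, a small collagen-binding proteoglycan, had 3651 CPM in cartilage and 1526 CPM in other spots in the stage 4 head, a ratio of 2.39 (2.23 to 2.56), and 1239 CPM in cartilage and 1275 CPM in other spots in the mixed section, a ratio of 0.972 (0.607 to 1.48). The biglycan gene bgnb had a ratio of 5.2 (3.8 to 7.02) and ogna, an osteoglycin gene, 3.01 (2.58 to 3.49) in the stage 4 head. LUM, for lumican, a proteoglycan of cornea and sclera, had 0.882 (0.67 to 1.14). Of the 7 connective tissue genes at the count minimum there, 4 were 2-fold or more higher, beside the 33.7% of all genes.

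Of 131 genes that could be read for the opposite direction in both sections, 17 were 2-fold or more lower in the cartilage spots of both (13%). Of these, 11 were crystallins, the soluble proteins of the lens. CRYBB1 had 871 CPM in cartilage spots of the stage 4 head against 8114 CPM in its other spots, a ratio of 0.107 (0.0938 to 0.122), and 563 CPM in cartilage and 8771 CPM in other spots in the mixed section, a ratio of 0.0642 (0.0308 to 0.118). The other 6 were mbpa, a myelin basic protein gene, pvalb4, a parvalbumin gene, APOD, for a lipid carrier, LGMN, for the protease legumain, zgc:153846 and ENSABLG00000006902, which has no symbol. For mbpa there were 8 UMIs in cartilage spots against 1449 in other spots of the stage 4 head, a ratio of 0.0841 (0.0363 to 0.166). The mixed section had 0 UMIs in cartilage and 1783 in other spots, a ratio of 0.142 when the 0 is set to 3 counts. With spots holding 1% or more muscle, lens or blood UMIs left out, 5 cartilage spots remained in the mixed section. There 7 crystallin ratios came out above 1, CRYBB1 at 1.22. Before that step its 18 cartilage spots held 10 UMIs of CRYBB1 and 0 of cryaa. These ratios thus rest on few UMIs or on a 0 set to 3 counts, and no direction is read from them.

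Marker genes of the other tissues of a head were summed in the same spots. The sums are RNA levels and do not give the amount of a tissue under a spot. Lens genes summed to 2297 CPM in cartilage and 22774 CPM in other spots in the stage 4 head and to 1183 CPM in cartilage and 25677 CPM in other spots in the mixed section. Muscle genes summed to 5070.0 CPM in cartilage and 84281 CPM in other spots in the stage 4 head, and 14 of 14 readable muscle genes were 2-fold or more lower, against 34.3% of all genes that could be read for that direction. Globins and other blood genes were the most abundant foreign list in cartilage spots, reaching 40203 CPM in cartilage and 59355 CPM in other spots within the stage 4 head and 42636 CPM in cartilage and 59699 CPM in other spots in the mixed section. At least 1% of the UMIs were blood genes in 62 of 134 cartilage spots of the stage 4 head and 10 of 18 of the mixed section. The blood list does not hold HBE1, a further globin gene. HBE1 had 23095 CPM in cartilage spots of the stage 4 head and 15939 CPM in those of the mixed section. Sums and spot counts from this list therefore leave out part of the globin RNA, here and wherever blood-rich spots are left out. Myelin genes summed to 68.5 CPM in cartilage and 591 CPM in other spots in the stage 4 head, where mbpb, plp1a and plp1b were at 0 UMIs in cartilage spots but also at 1, 0 and 0 in other spots, and neural genes to 103 CPM in cartilage and 182 CPM in other spots, where ELAVL3 and ELAVL4 were at 0 in cartilage spots and at 2 and 1 UMIs in other spots. Vessel genes had 9 UMIs in the stage 4 head (34.2 CPM in cartilage and 61.4 CPM in other spots), and their members were split. KDR and TIE1 were at 0 against 111 and 28 UMIs in other spots. EGFL7 had 7 UMIs against 69, a ratio of 1.55, and PECAM1 2 against 19, a ratio of 1.6. Immune genes stood at 198 CPM in cartilage and 164 CPM in other spots, with PTPRC at 0 against 1 UMI. Apart from KDR, the genes at 0 had too few UMIs in other spots for a 0 to say much about cartilage spots. In the mixed section neural genes summed to 676 CPM in cartilage and 1563 CPM in other spots, myelin genes to 56.3 CPM in cartilage and 1811 CPM in other spots, vessel genes to 56.3 CPM in cartilage and 137 CPM in other spots and immune genes to 0 UMIs in cartilage and 255 CPM in other spots. Surface epithelium was the one such list with a summed ratio over 1 in the stage 4 head apart from immune cells, with 2434 CPM in cartilage and 2085 CPM in other spots, carried by the keratin gene krt8 at 1700.2 CPM in cartilage and 1124 CPM in other spots, while the basal epidermal keratin gene krt5 had a ratio of 0.476 (0.332 to 0.663). The mixed section had 1577 CPM in cartilage and 3492 CPM in other spots for that list. Pigment genes summed to 251 CPM in cartilage and 293 CPM in other spots, and photoreceptor genes to 141 CPM in cartilage and 688 CPM in other spots, both in the stage 4 head. The part of these tissues in the ratios above was not tested.

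**Figure D4:**
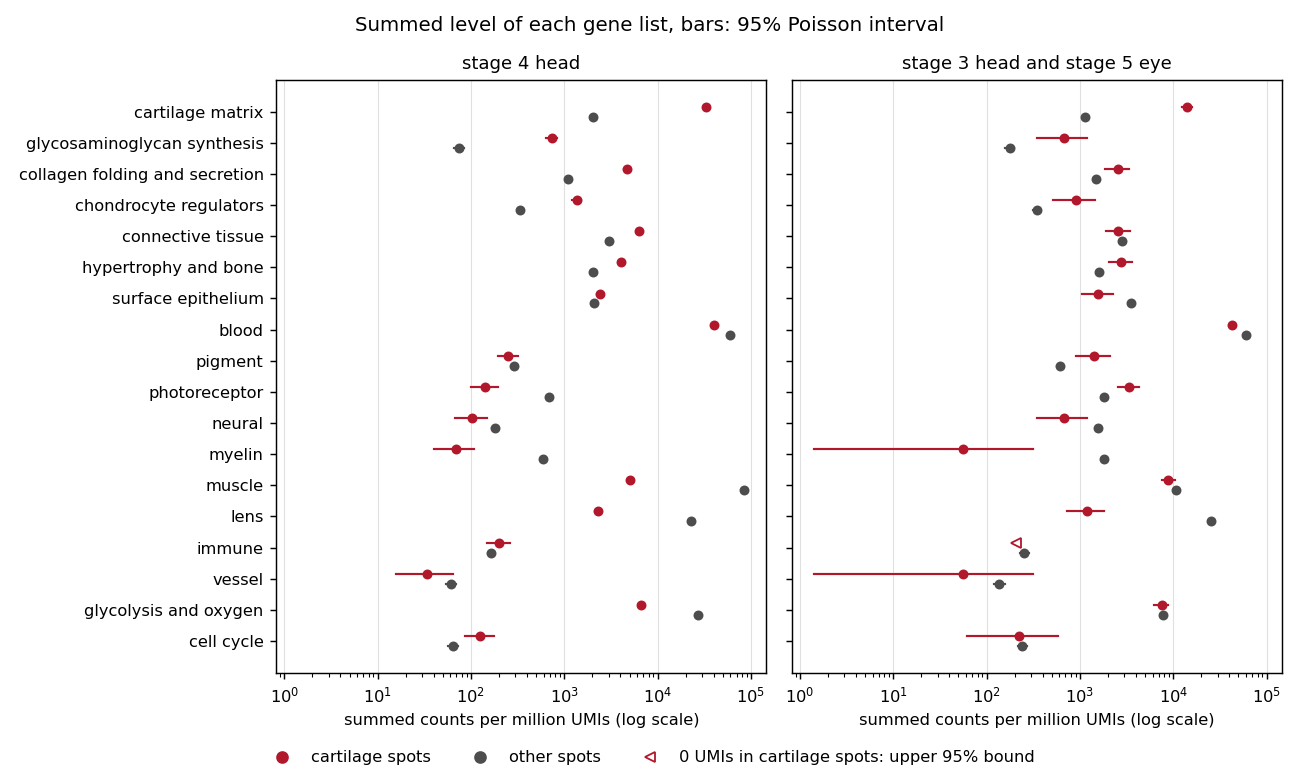
Summed level (CPM, log scale) of the gene lists in cartilage spots (red) and other spots (grey) of the stage 4 head (left) and of the mixed section of stage 3 head and stage 5 eye (right), with 95% Poisson bars. In the stage 4 head the cartilage matrix list reached 33044.5 CPM in cartilage and 2024 CPM in other spots, and the muscle list 5070.0 CPM in cartilage and 84281 CPM in other spots.

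In the mixed section a few foreign genes were higher in cartilage spots, and single spots carried much of this. Muscle genes had 157 UMIs there (8843 CPM in cartilage and 10799 CPM in other spots), and 141 of them lay in 1 spot. CKM, the muscle creatine kinase gene, had all of its 28 UMIs in a single cartilage spot, and aldoaa, an aldolase gene abundant in muscle, 37 of 39. The aldoaa ratio of 2.5 (1.77 to 3.44) became 0.156 (0.0189 to 0.565) without its highest spot. Photoreceptor genes summed to 3323 CPM in cartilage and 1803 CPM in other spots, with 25 of 59 UMIs in 1 spot, and to 2329.7 CPM without that spot. The cone transducin gene gngt2b kept a ratio above 1, at 2.998 (1.84 to 4.63), and 2.61 (1.45 to 4.33) without its highest spot. The pigment epithelium gene rpe65a had 13 UMIs in 6 of 18 cartilage spots, a ratio of 3.42 (1.8 to 5.94), and 2.24 (0.894 to 4.67) without its highest spot. Pigment genes together had 1408 CPM in cartilage and 612 CPM in other spots, and 754 CPM in cartilage spots without the highest. In the stage 4 head gngt2b and rpe65a had ratios of 0.265 (0.154 to 0.426) and 0.899 (0.556 to 1.38).

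Glycolysis and oxygen-response genes were read because chondrocytes are known for living on glycolysis at low oxygen. The list summed to 6656 CPM in cartilage and 27073 CPM in other spots in the stage 4 head and to 7491 CPM in cartilage and 7694 CPM in other spots in the mixed section. In the mixed section 64 of its 133 UMIs in cartilage spots lay in 1 spot. Without that spot the list had 4728 CPM in cartilage spots, a ratio of 0.614. Of 14 of its genes at the count minimum in the stage 4 head, 2 were 2-fold or more higher, beside 33.7% of all genes at that minimum. Of 12 readable for the opposite direction, 7 were 2-fold or more lower, beside 34.3% of all genes readable for it. The lower ones include aldoaa, at a ratio of 0.0468 (0.0397 to 0.0548), and GAPDH, at 224 CPM in cartilage and 4241 CPM in other spots, in a section whose other spots were rich in muscle genes. The higher ones were hif1aa, for an oxygen-regulated transcription factor, with a ratio of 2.46 (1.45 to 3.96), and pgam1b, a phosphoglycerate mutase gene, with 2.05 (1.64 to 2.53). Cell cycle genes had 33 UMIs in cartilage spots of the stage 4 head (126 CPM in cartilage and 63.7 CPM in other spots) and 4 in the mixed section, with mki67 and TOP2A at 0 in both, and at 7 and 4 UMIs in other spots of the stage 4 head. Of the 33 UMIs 14 were of TYMS, and without it the summed ratio in the stage 4 head was 1.26.

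The cartilage spots were graded in the share of the genes that chose them, and other genes were read along it. In the stage 4 head, 43 of them had 1 to 2% of their UMIs in the genes that chose them, 77 had 2 to 5% and 14 had 5% or more. COL2A1 was higher in each successive range, with 385 CPM in the other spots and 6146, 11688 and 19648 CPM in the 3 ranges. CNMD had 109 CPM in the other spots and then 2046, 3203 and 6164 CPM, and ucmaa 49.4 CPM and then 409, 1448 and 1816 CPM. OTOS had 10002 CPM in the lowest range, 18195 CPM in the middle and 15520.1 CPM in the highest, so its level did not keep climbing. Nor did ucmab (348, 539 and 330 CPM), TNC (696, 1309 and 826 CPM) or sox9a (113, 277 and 165 CPM, the last on 3 UMIs). Both xylt1 (218, 493 and 881 CPM) and cthrc1a (514, 855 and 1211 CPM) climbed. DCN, hbaa2 and actb1 fell over the 3 ranges. DCN had 5623.5, 2333 and 605 CPM in the 3 ranges and 1526 CPM in the other spots, so it was highest in the cartilage spots with the least cartilage RNA. The alpha globin gene hbaa2 had 61589, 20682 and 2697 CPM, and the beta-actin gene actb1 7347, 4589 and 2146 CPM. For col10a1a the ranges had 427, 277 and 385 CPM, with intervals that overlap (316 to 564, 194 to 384 and 155 to 794). Median depth fell along the same series, at 2276, 1574 and 1305.5 UMIs per spot, and its part in these levels was not tested. The mixed section had 10 cartilage spots at 1 to 2% and 8 at 2 to 5%. Between these ranges COL2A1 went from 3687 to 6757 CPM, CNMD from 922 to 3801 CPM and actb1 from 4148 to 2323 CPM. DCN did not fall there, at 1229 and 1267 CPM, and hbaa2 went from 1997 to 48987 CPM.

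**Figure D5:**
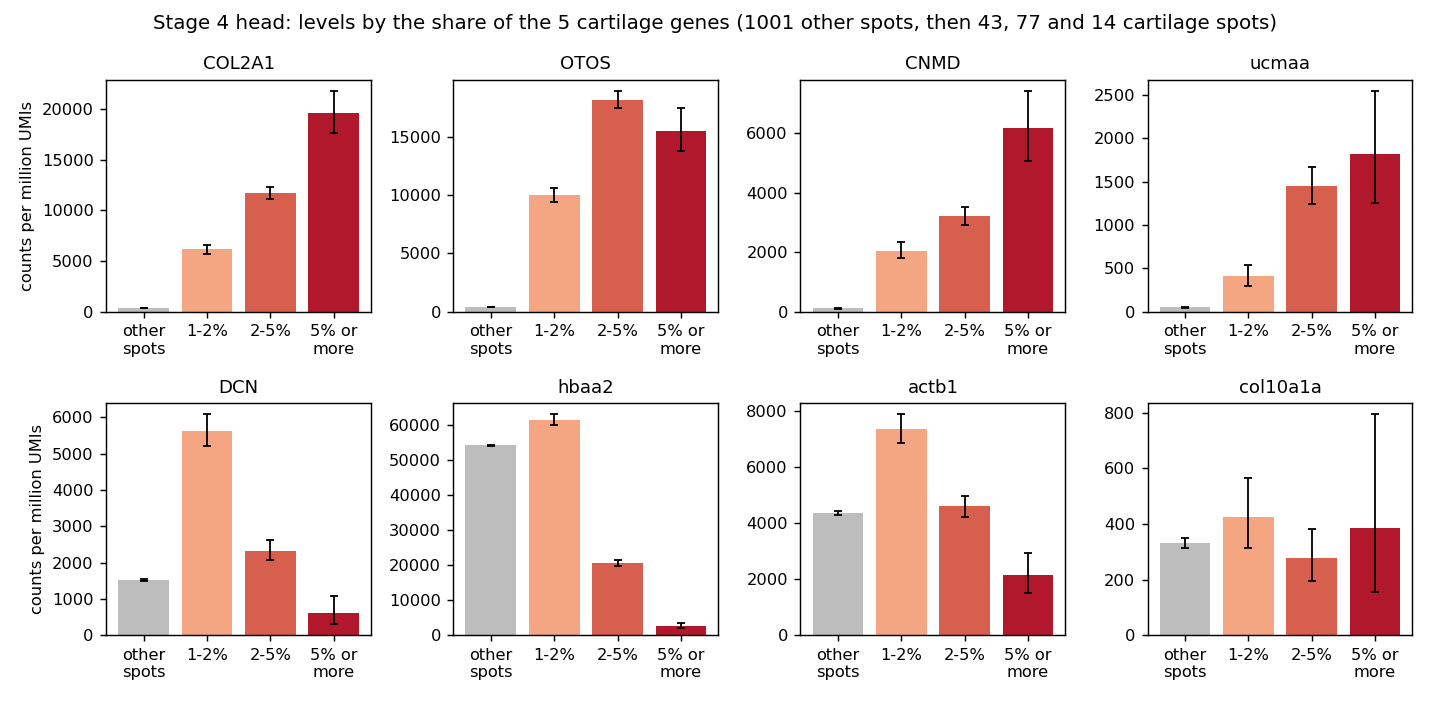
Level (CPM, linear axis from 0, bars with 95% Poisson intervals) of 8 genes in the stage 4 head, in the 1001 other spots and in cartilage spots with 1 to 2%, 2 to 5% and 5% or more of their UMIs in the genes that chose them. COL2A1 and CNMD increase over the ranges, DCN and hbaa2 are highest at 1 to 2%, and the col10a1a intervals overlap.

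Across the 134 cartilage spots of the stage 4 head, the share of each of 212 genes with 100 or more UMIs was ranked against the share of the genes that chose the spots. The points come from 1 section and differ in depth, which itself had a Spearman correlation of -0.36 with that share, and shares of the same total are not free of each other, so these values describe the spots only. COL2A1 had the highest correlation at 0.83, followed by CNMD at 0.62 and ucmaa at 0.55. The metabolic gene bhmt had 0.49 and OTOS 0.40. The lowest were actb1 at -0.50 and si:ch211-156l18.7 at -0.51, and DCN and hbaa2 both had -0.43.

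Within cartilage spots, the stage 4 head was then set against the mixed section, which differs from it in stage and in the pieces of tissue it holds. Of 270 genes with 50 or more UMIs in the section where they were higher, 20 were 4-fold or more higher in the stage 4 head (7.41%) and 4 were 4-fold or more lower (1.48%). Those counts are not set against each other, because 50 UMIs are 190 CPM in the deeper stage 4 head and 2816 CPM in the mixed section. With 2816 CPM asked of the higher section in either direction, a setting added after seeing the data, 0 of 100 genes were called higher in the stage 4 head and 4 lower, so the genes named as higher here rest on the lower minimum of that section. The median of the 270 ratios, which the same minimum shapes, was 1.45 (0.53 on the log2 scale), and with ratios divided by that, 12 genes were called higher. With spots thinned to 500 UMIs 8 were called higher. COL2A1 had 9817 CPM in the stage 4 head and 4506 CPM in the mixed section, a ratio of 2.18 (1.74 to 2.76). OTOS had a ratio of 2.75 (2.24 to 3.42) and thbs1b 0.602 (0.39 to 0.971). The ucmaa level was 1019 CPM in the stage 4 head and 169 CPM in the mixed section, there on 3 UMIs, a ratio of 6.03 (2.04 to 29.4). The spots compared also differed in the median share of the genes that chose them, 2.79% in the stage 4 head and 1.76% in the mixed section. The part of that difference in these ratios was not tested.

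Apart from ucmaa, ecrg4a and FRZB, the named genes called in this comparison were not on the cartilage matrix or regulator lists. The connective tissue growth factor gene ccn2a, whose mammalian counterpart is active in cartilage, had 1327 CPM in the stage 4 head and 113 CPM in the mixed section, a ratio of 11.8 (3.24 to 97.7). CCN1, for a related matrix-associated signal, had 218 UMIs (829 CPM) in the stage 4 head and 0 UMIs in the mixed section, which makes it at least 4.91-fold higher with the 0 set to 3 counts. FRZB had a ratio of 7.09 (1.25 to 283), ecrg4a 6.84 (2.65 to 25.2) and SDC3, for the cell-surface proteoglycan syndecan 3, 6.38 (1.74 to 53.1). Also called higher were si:dkey-31g6.6 at 8.37 (1.48 to 333), the keratin gene krt18a.1 at 6.62 (1.16 to 264) and the crystallin gene CRYBA4 at 6.48 (1.14 to 259). These intervals are wide because the mixed section gave 1 to 4 UMIs for each. The gene zgc:153846, which was lower in cartilage than in other spots of both sections, had 521 UMIs in cartilage spots of the stage 4 head and 1 in those of the mixed section, a ratio of 35.2 (6.29 to 1392).

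Of the 4 genes called lower, 2 have globin symbols. The genes hbbe2 and hbae5, named after embryonic globins of the zebrafish, had 1556 CPM and 1133 CPM in the stage 4 head, against 16164.5 CPM and 11884 CPM in the mixed section, ratios of 0.0962 (0.0826 to 0.112) and 0.0954 (0.0797 to 0.114). Other globins ran the other way, HBE1, also named after an embryonic globin, with 23095 CPM in the stage 4 head and 15939 CPM in the mixed section, a ratio of 1.45 (1.29 to 1.64), and the adult-type alpha globin gene hbaa2, with 37312 CPM in the stage 4 head and 14531 CPM in the mixed section. The remaining genes called lower in the stage 4 head were gb, with 616 CPM there and 21008 CPM in the mixed section, and APOD, with 1552 CPM there and 9462 CPM in the mixed section. The identity of gb (ENSABLG00000017302) was not examined. The other spots of the sections differed in the same direction for hbbe2, with 2740.2 CPM in the stage 4 head against 28824 CPM in the mixed section.

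Development was compared with the adult by the same rule, on adult cartilage spots that held 6853 UMIs in the first eye and 4362 in the second. The developmental sections held heads, with an eye in the mixed section, and the adult sections held eyes only. Stage therefore cannot be told apart from the tissue sampled, for any gene of this comparison. No gene of 128 was 4-fold or more higher in all 4 pairs of a developmental and an adult section (0%), and 2 of 62 were that much lower (3.23%). Leaving out the first adult eye, or the second, gave 2 genes higher and 3 lower. CLEC3A, a lectin gene of cartilage, had 354 CPM in the stage 4 head and 169 CPM in the mixed section, against 9339 and 6878 CPM in the adult eyes. CLEC3A was higher in cartilage than in other spots in every section, with ratios of 13.4 (10.0 to 17.8) in the stage 4 head, 15.8 (2.95 to 55.2) in the mixed section on 3 UMIs, and 46.7 (35.6 to 60.2) and 70.9 (47.4 to 103) in the adult eyes. The prostaglandin D synthase gene ptgdsb.1 had 1084 and 619.5 CPM in the stage 4 head and the mixed section, against 7296 and 5044 CPM in the adult eyes. Its level in the other spots differed the same way, with 560.4 and 563 CPM during development against 3117 and 3675 CPM in the adult eyes.

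COL2A1 and OTOS were higher in the developmental head sections than in the adult eyes in every pair, but not by 4-fold in each. COL2A1 had 9817 and 4506 CPM in the cartilage spots of the developmental sections, against 2189 and 1605 CPM in the adult eyes. The 4 pairs ran from 2.06-fold to 6.12-fold higher in development. For OTOS the values were 14430.4 and 5238 CPM in development against 2627 and 2751 CPM in the adult, 1.9-fold to 5.49-fold higher. These adult levels rest on 15 and 7 UMIs of COL2A1 and 18 and 12 of OTOS. CNMD was also higher in every pair, from 1.93-fold to 4.22-fold. The genes that chose the spots also had higher median shares in development, 2.79% and 1.76% against 1.52% and 1.35% in the adult eyes. The part of that difference in these ratios was not tested. The genes acanb, MATN1 and VIT did not keep 1 direction over the 4 pairs, with development over adult from 0.722 to 1.66 for acanb, from 0.157 to 1.7 for MATN1 and from 0.845 to 1.84 for VIT. For thbs1b every pair was below 1, from 0.378 to 0.986. Among the genes that chose the spots, MATN1 gave 6.03% and 3.48% in the developmental sections, against 27.6% (19 to 37.5%) in the first adult eye and 6.9% (1.91 to 16.7%) in the second.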

How the data were processed

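Visium libraries of 4 sections were analysed, from a stage 4 head, a mixed section (stage 3 head, stage 5 eye) and 2 adult eyes. The authors deposited unnormalized counts of UMIs for each gene in each spot, which per the file headers came from Space Ranger 3.1.3. Genome build, annotation and alignment settings are not given in the sources used here. The files list 22934 genes, and rows that share a symbol were summed, which gave 20598 rows. Coordinates and sequences were not used here, and reads split between near-identical gene copies could not be examined. Every per-sample column given was used.

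Spots with 100 or more UMIs were kept, no doublet caller was run, and 95 to 1015 barcodes are shared per pair of sections, since Visium arrays reuse a fixed barcode set. Counts were summed over cartilage and other spots of each section and scaled to CPM with exact Poisson intervals, ratios have exact conditional binomial intervals and shares Clopper-Pearson intervals, all at 95%. A gene was called at 2-fold or more in both developmental sections with 20 or more UMIs (lower: 20 or more expected), at 4-fold with 50 or more UMIs between developmental sections, and at 4-fold in all 4 pairs with 20 or more UMIs in each section of the higher side between development and adult. A level of 0 was set to 3 counts. No p-value was computed. The scripts were tested on simulated data and used Python 3.11.15, numpy 2.4.6, scipy 1.17.1, pandas 2.3.3 and matplotlib 3.10.9.

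Named genes were the 5 genes that chose the spots and col10a1a; up to 4 members per list with the largest ratio in the weaker section; and up to 12 higher, 8 lower and 8 per direction in the section comparisons with the largest ratios. Other genes were named after their values were seen. The members and the lists (19 lists, 328 names) were chosen with earlier results of these data known. Alternatives changed the spot minimum, the rule, the other spots, the scaling, the fold and the count minimum, and left out each adult section.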

Additional observations from a re-analysis of the deposited data

Results flagged for a closer look

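The following ratios of cartilage over other spots lay above 1 in one developmental section and below 1 in the other, and the difference between the sections was not tested. Photoreceptor genes summed to ratios of 0.205 in the stage 4 head and 1.84 in the mixed section, and within them gngt2b had 0.265 in the stage 4 head and 2.998 in the mixed section, and pde6ha, a cone phosphodiesterase subunit gene, 0.15 in the stage 4 head and 1.66 in the mixed section. Without its highest spot the mixed-section pde6ha ratio was 1.04 (0.569 to 1.76). Surface epithelium genes summed to 1.17 in the stage 4 head and 0.452 in the mixed section. The muscle-rich genes CKM and aldoaa differed too, with CKM at 0.0716 in the stage 4 head and 2.43 in the mixed section, and aldoaa at 0.0468 in the stage 4 head and 2.5 in the mixed section. In the mixed section all 28 CKM UMIs and 37 of 39 aldoaa UMIs of cartilage spots lay in single spots. The globin gene hbaa2 had 0.688 in the stage 4 head and 1.41 in the mixed section, where it was 0.867 (0.734 to 1.02) without its highest spot. The glycolytic gene GAPDHS had 1.58 in the stage 4 head and 0.591 in the mixed section, and actb1 1.29 in the stage 4 head and 0.589 in the mixed section.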

How the results depend on the processing

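No paired analysis was possible because the groups share at most 1 replicate number, given in accession order, and no test between groups was run. At a threshold of 2% of UMIs, 8 cartilage spots were left in the mixed section, 12 genes were called higher and 0 lower in the stage 4 head against it, and 0 were higher in the adult. With spots thinned to 500 UMIs, 8 genes were lower in cartilage spots, 8 were higher in the stage 4 head and 0 in the adult. A minimum of 100 UMIs gave 4 higher and 5 lower in cartilage spots. Without spots holding 1% or more muscle, lens or blood UMIs, which left 61 and 5 cartilage and 52 and 229 other spots in the stage 4 head and the mixed section, 7 were higher and 3 lower. There 7 crystallin ratios of the mixed section came out above 1, cryba1a at 6.03, cryba2b at 1.91, crybb1l1 at 2.53, CRYBA4 at 3.103, cryba1b at 2.01, CRYBB1 at 1.22 and cryaa at 5.87. All 18 cartilage spots of that section held 0 UMIs of cryaa, 1 each of cryba1a, cryba2b and CRYBA4 and 3 of crybb1l1. They held 5 of cryba1b and 10 of CRYBB1. The cryaa value is thus a 0 set to 3 counts, and no direction is read from the 7 ratios. That setting removes lens-rich spots by construction, and its part in these ratios was not tested. In alternatives added after seeing the data, the stage 4 head alone gave 233 higher and 224 lower genes, and the mixed section alone 20 higher. The same CPM minimum in both sections gave 0 genes higher in the stage 4 head, since fewer of its genes are then read (100 in both directions, against 270). Ratios divided by their median gave 12 genes higher in the stage 4 head, and against the adult 4 higher and 1 lower in development. A minimum of 500 UMIs per spot, and col10a1a added to the rule, each gave 1 gene higher in the adult. Leaving out either adult section gave 2 genes higher in development (0 with both) and 3 higher in the adult (2 with both). Of 821 ratios of named genes under the alternatives, 543 stayed within the counting interval of the reported ratio and 271 moved outside it. The remaining 7, the crystallin ratios above, came out on the other side of 1. Depth limits the cartilage spots of the adult eyes most, where 3 counts are 438 and 688 CPM, and then those of the mixed section, at 169 CPM.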

Other observations

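Several genes of secretion and matrix outside the lists above were also higher in cartilage spots of the stage 4 head. They were picked after their values were seen. The gene cthrc1a, for a secreted collagen triple helix repeat protein, had 730.3 CPM in cartilage and 18.7 CPM in other spots, a ratio of 39 (29.7 to 51.6). TNC, for tenascin C, a large matrix glycoprotein, had 1008 CPM in cartilage and 29 CPM in other spots, a ratio of 34.8 (27.9 to 43.7), and ITIH3, for a hyaluronan-binding inhibitor heavy chain, 38.3 (25.9 to 57.7). The mixed section gave these 3 genes 7, 10 and 5 UMIs in cartilage spots and ratios of 36.8 (12.8 to 94.7), 14.8 (6.73 to 29.2) and 21.1 (6.18 to 57.8). SMOC2, for a calcium-binding matrix protein, had a ratio of 22.6 (16.4 to 31.4) in the stage 4 head and no UMI in cartilage spots of the mixed section. The sugar transporter gene slc35a3b had a ratio of 30.5 (13.6 to 72.9) in the stage 4 head, and ddr2b, for a collagen receptor, 19.2 (12.3 to 30.3).

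Genes that act on vitamin K-dependent proteins were read in the stage 4 head because ucmaa and MGP encode such proteins. VKORC1, which regenerates reduced vitamin K, had 95.1 CPM in cartilage and 3.74 CPM in other spots, a ratio of 25.4 (12.9 to 51.8). GGCX, the carboxylase that uses it, had 145 CPM in cartilage and 24 CPM in other spots, a ratio of 6.03 (4.03 to 8.87). RBP4, for a retinol carrier, had a ratio of 10.3 (8.23 to 12.8), and S100B, a calcium-binding protein gene expressed by mammalian chondrocytes, 7.65 (6.13 to 9.51) in the stage 4 head and 0.648 (0.078 to 2.36) in the mixed section on 2 UMIs.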
